A study of Arabidopsis thaliana with 5 samples.

Results

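The chloroplast genome of Arabidopsis thaliana encodes core subunits of the photosynthetic machinery, and 43 of these genes were followed on the arrays: 5 genes of photosystem I (psa), 15 of photosystem II (psb), 6 of the cytochrome b6f complex (pet), 6 of ATP synthase (atp), 10 of the NDH complex (ndh) and rbcL, the large subunit of Rubisco. A gene was included when a probe set was annotated to it alone, its plastid locus tag began with ArthCp, and its symbol began with one of these prefixes. Each of the 43 genes had 1 such probe set, out of 22746 probe sets and 13356 named genes in all. RefSeq assembly TAIR10.1 lists 44 symbols of these families in the plastid. The remaining gene, ndhB, lies there in 2 copies and shares a probe set, so it was not counted. It measured 4.22, 4.38 and 4.38 (log2) in Columbia and 4.88 and 4.38 in Landsberg erecta.

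RNA came from tissue labelled as secondary meristem, from 3 Columbia samples (Columbia replicates 1 to 3) and 2 Landsberg erecta samples (Landsberg erecta replicates 1 and 2). All 5 came from greenhouse plants (16 h light, 8 h dark, after 3 days in the cold) whose stems had been clipped when they bolted, to stand for damage by herbivores, and tissue was taken on the next day. The series' design text says that the ecotypes were chosen because they compensate differently for such damage. The labels call the arrays biological replicates and do not say how many plants went into each. Clipping is shared by both groups, so the values below compare clipped ecotypes, and unclipped plants were not analysed here.

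Photosystem II splits water and passes electrons through plastoquinone to the cytochrome b6f complex and on to photosystem I, and the proton gradient built on the way drives ATP synthase. The NDH complex, related to respiratory complex I, returns electrons from ferredoxin to plastoquinone in cyclic electron flow. Each complex joins plastid-encoded subunits to subunits encoded in the nucleus. Most plastid genes lie in clusters that are transcribed together, and the long transcripts are then cut and trimmed by RNA-binding proteins made in the cytosol. Plastid mRNAs lack the stable poly(A) tails of nuclear mRNAs.

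Values are the authors' log2 values, whose median was 5.44 to 5.50 on the arrays and whose shared minimum was 2.15. The number of arrays limits the precision. A level of one probe set cannot be set against that of another, so each gene was compared only with itself across arrays. Of 11 listed meristem markers, CLV3 and LAS had a named probe set, and both sat at the minimum of 2.15 on all 5 arrays. Nuclear genes of photosynthesis, read as markers of green tissue, had 15 measured members of 81 listed, most of them with log2 values above 11. Some control measures differed along with the ecotypes. The 25S ribosomal RNA probe set had 7.77, 8.11 and 8.17 in Columbia and 7.16 and 6.53 on Landsberg erecta replicates 1 and 2 (exact two-sided permutation test, p = 0.1, the smallest that 10 splits allow). The log2 ratio of the 3 prime to the 5 prime GAPDH probe sets, a sign of RNA integrity and labelling, was 0.93 ± 0.04 in Columbia (SD, n = 3) and 1.24 ± 0.02 in Landsberg erecta (SD, n = 2; exact two-sided permutation test, p = 0.1). The same ratio for ubiquitin was 0.85 ± 0.11 in Columbia (SD, n = 3) and 0.87 ± 0.03 in Landsberg erecta (SD, n = 2; exact two-sided permutation test, p = 0.9).

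The plastid photosynthesis genes split the 2 Landsberg erecta arrays more than they split the ecotypes. In Landsberg erecta, 39 of the 43 genes were higher on replicate 2 than on replicate 1, by a median of 0.50 on the log2 scale and by as much as 3.02 for psaA. Over all 16428 probe sets that varied, 6902 (42%) were higher on replicate 2, 6923 were lower and the rest were equal. Of those whose mean was at least that of the lowest member (called below those at the members' levels), 45.2% were higher on replicate 2. For 20 genes, all 3 Columbia arrays lay between the Landsberg erecta arrays with replicate 2 on top, as in 4.91% of the probe sets that varied (5.57% at the members' levels). Replicate 2 held the highest of the 5 values for 32 genes (21% of probe sets that varied, 21.7% at the members' levels), and replicate 1 the lowest for 25 genes (16.2% and 18.3%). In bulk tissue, a smaller share of green cells and less plastid RNA per cell cannot be told apart, and neither was tested. Control transcripts and nuclear photosynthesis genes, described below, also differed between the 2 Landsberg erecta arrays.

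**Figure D1:**
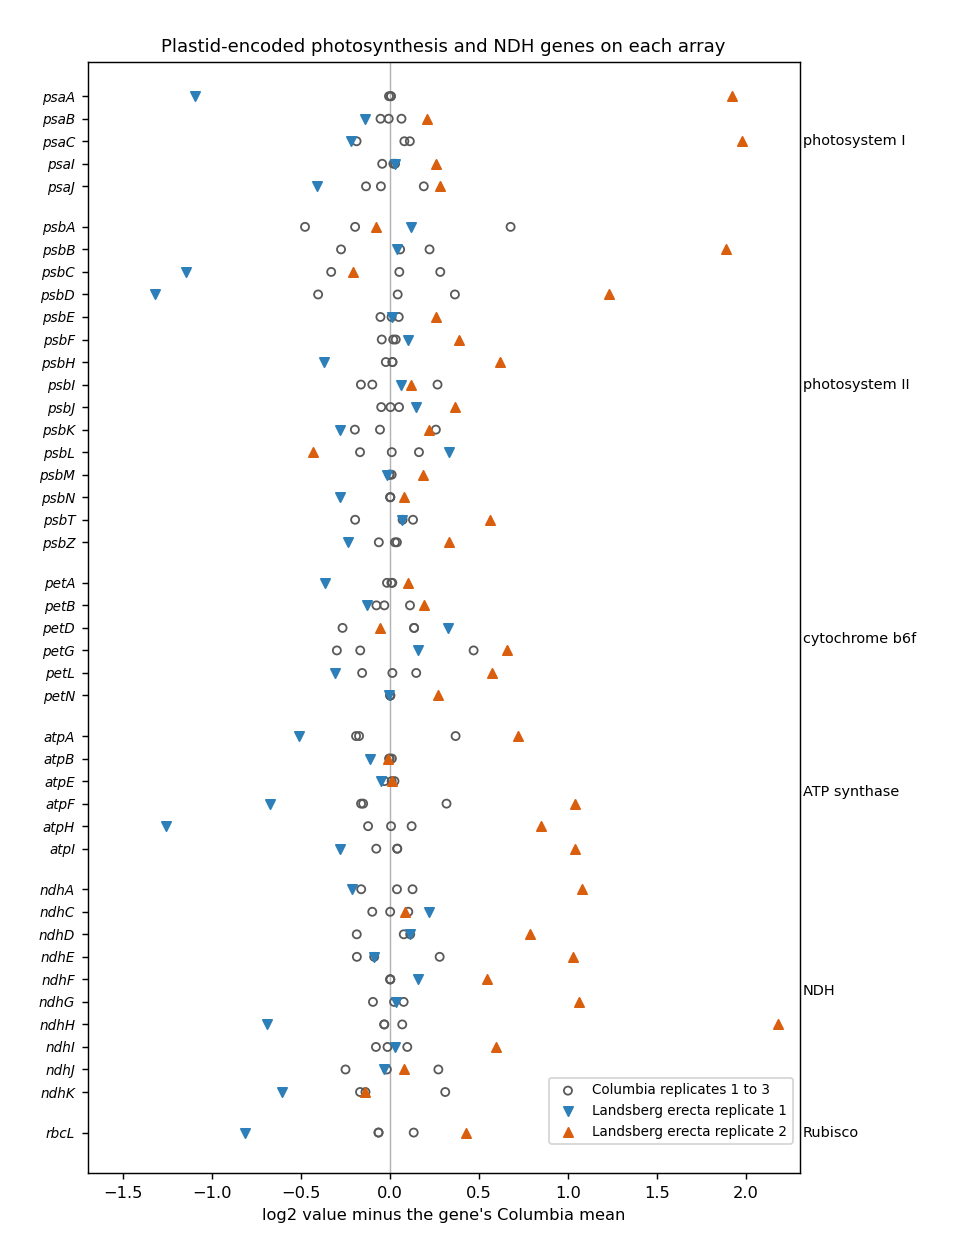
Log2 value of each of the 43 genes on each array minus that gene's Columbia mean (horizontal axis, log2), with genes listed by complex. Open circles are the 3 Columbia arrays, downward triangles Landsberg erecta replicate 1 and upward triangles Landsberg erecta replicate 2. For psaA the Columbia arrays fall on top of each other while the Landsberg erecta arrays lie 3.02 apart.

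The gap between the Landsberg erecta arrays was at least 2-fold for 13 of the 43 genes, or 30.2% of them, against 0.444% of the probe sets that varied (0.469% at the members' levels). Those 13 made up 17.8% of the 73 probe sets with such a gap on the whole array. psaA and ndhH had the widest and the next widest gap of all 22746 probe sets, and 6 of the 10 widest gaps belonged to these genes (psaA, ndhH, psbD, psaC, atpH and psbB). None of the 43 genes (0) was 2-fold lower on replicate 2 than on replicate 1. The gap was wider than the range of the 3 Columbia arrays for 36 of the 43 genes, against 38.7% of the probe sets that varied (38.8% at the members' levels).

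In photosystem I, which donates electrons to ferredoxin, all 5 genes were highest on Landsberg erecta replicate 2. psaA, one of the paired core proteins that hold the reaction centre chlorophylls, measured 10.42, 10.42 and 10.41 (log2) in Columbia and 9.32 and 12.34 in Landsberg erecta, where the first of each such pair is replicate 1. The Columbia arrays were almost identical, and the Landsberg erecta arrays lay on either side of them, 8.09-fold apart. psaB, the other core protein, had 13.20, 13.25 and 13.32 in Columbia and 13.11 and 13.46 in Landsberg erecta. As for psaA, its Columbia arrays lay between the Landsberg erecta arrays with replicate 2 on top, over a much narrower span. psaC, which binds iron-sulphur clusters at the stromal side, had 8.69, 8.96 and 8.99 in Columbia and 8.66 and 10.86 in Landsberg erecta, so that replicate 2 alone stood apart, 4.57-fold above replicate 1. Among the small subunits, psaJ had 13.81, 13.90 and 14.14 in Columbia and 13.54 and 14.23 in Landsberg erecta. psaI had 11.35, 11.29 and 11.36 in Columbia and 11.36 and 11.59 in Landsberg erecta.

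Photosystem II held both some of the widest gaps and the clearest exceptions. psbD, which encodes the reaction centre protein D2, had 9.38, 9.70 and 8.93 in Columbia and 8.01 and 10.56 in Landsberg erecta. Even with a Columbia range of 0.77, the Columbia values stayed inside the Landsberg erecta pair, which was 5.87-fold apart. psbC, the antenna protein CP43, had 11.68, 11.91 and 11.30 in Columbia and 10.48 and 11.42 in Landsberg erecta. Its difference of 0.68 was the highest in favour of Columbia among the 43 genes. Landsberg erecta replicate 1 lay below every Columbia array there, while replicate 2 lay within the Columbia range. psbB, the antenna protein CP47, had 8.62, 8.95 and 9.12 in Columbia and 8.93 and 10.78 in Landsberg erecta, and its difference of -0.96 was the lowest of the 43. This value rested on Landsberg erecta replicate 2, since replicate 1 lay within the Columbia range.

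psbA, which encodes the rapidly replaced reaction centre protein D1, did not follow that order. It had 9.63, 9.91 and 10.78 in Columbia and 10.22 and 10.03 in Landsberg erecta, with its highest value on Columbia replicate 3 and its lowest on Columbia replicate 1. It was the single gene of the 43 with a Columbia range above 2-fold (1.16 on the log2 scale). psbL, a small subunit, was the only member with all Columbia arrays between the Landsberg erecta arrays and replicate 1 on top, with 8.41, 8.23 and 8.56 in Columbia and 8.73 and 7.97 in Landsberg erecta. psbJ, another small subunit, was the only member at an unadjusted p under 0.05, with 9.51, 9.56 and 9.61 in Columbia and 9.71 and 9.93 in Landsberg erecta. Its groups did not overlap, but the difference of -0.26 did not pass (limma unadjusted p = 0.0492, adjusted p = 1.0).

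psbH, a subunit that is phosphorylated, had 12.17, 12.17 and 12.14 in Columbia and 11.79 and 12.78 in Landsberg erecta, again on either side. psbF, which with psbE forms cytochrome b559, had 10.71, 10.63 and 10.69 in Columbia and 10.78 and 11.06 in Landsberg erecta, without overlap. For psbE, psbI, psbK, psbM, psbN, psbT and psbZ the gap between the Landsberg erecta arrays was 0.06 (psbI) to 0.57 (psbZ), always with replicate 2 higher. psbI and psbK peaked on Columbia replicate 3, at 11.50 and 12.78, as psbA did.

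The cytochrome b6f genes, whose complex links the photosystems, had no member (0 of 6) with a 2-fold gap between the Landsberg erecta arrays, and their median gap was 0.39. petB, which encodes cytochrome b6, had 14.14, 13.96 and 14.00 in Columbia and 13.90 and 14.22 in Landsberg erecta. petA, which encodes cytochrome f, had 12.04, 12.02 and 12.05 in Columbia and 11.67 and 12.14 in Landsberg erecta, a pair that enclosed 3 nearly equal Columbia values. The small subunit gene petL had 9.29, 9.46 and 9.59 in Columbia and 9.14 and 10.02 in Landsberg erecta, the widest gap of the group. For petG the values were 7.14, 7.27 and 7.91 in Columbia and 7.59 and 8.09 in Landsberg erecta, with Columbia replicate 3 between the Landsberg erecta values. petN had 6.68 on all Columbia arrays and 6.68 and 6.95 in Landsberg erecta. petD, subunit IV, had low values of 3.34, 3.75 and 3.75 in Columbia and 3.93 and 3.56 in Landsberg erecta, and it was higher on replicate 1.

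The ATP synthase genes fell into 2 patterns along their gene clusters. All 6 were lowest on Landsberg erecta replicate 1, and the 4 genes of the atpI, atpH, atpF and atpA cluster were highest on replicate 2. atpH, the membrane ring subunit, had 11.19, 11.32 and 11.43 in Columbia and 10.05 and 12.16 in Landsberg erecta, a gap of 4.31-fold. atpF, part of the peripheral stalk, had 11.06, 11.04 and 11.52 in Columbia and 10.53 and 12.24 in Landsberg erecta, and atpI, a membrane subunit, had 5.65, 5.77 and 5.77 in Columbia and 5.45 and 6.77 in Landsberg erecta. In these genes the Columbia arrays again lay inside the Landsberg erecta pair. atpA, the alpha subunit of the catalytic head, had 12.63, 12.65 and 13.19 in Columbia and 12.31 and 13.54 in Landsberg erecta.

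The genes of the other cluster, atpB and atpE, hardly varied, and both lay near the highest values on the arrays (15.08 to 15.13). Of the 10 members with a mean of 12 or more, 1 had a 2-fold gap between the Landsberg erecta arrays. Among the 24 with a mean of 8 to under 12 there were 9, and among the 9 under 8 there were 3. The part of the level in the size of a gap was not tested. atpB, the catalytic beta subunit, had 14.32, 14.32 and 14.34 in Columbia and 14.22 and 14.31 in Landsberg erecta, and it was the only member whose values were higher in Columbia without overlap. atpE had 14.38, 14.43 and 14.42 in Columbia and 14.35 and 14.42 in Landsberg erecta. The difference between the ecotypes was 0.06 for atpB and 0.02 for atpE, with 95% intervals from -0.04 to 0.17 and from -0.07 to 0.11. rbcL, the neighbour of atpB and the single Rubisco gene of the plastid, had 9.50, 9.50 and 9.70 in Columbia and 8.75 and 9.99 in Landsberg erecta, and there the pair stood 2.36-fold apart around the Columbia values.

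The NDH genes gave the lowest group difference, with 9 of 10 means higher in Landsberg erecta and a median difference of -0.39. Landsberg erecta minus the Columbia mean had a median of -0.005 for replicate 1 and 0.69 for replicate 2. ndhH, a subunit of the arm near the stroma, had 6.23, 6.13 and 6.13 in Columbia and 5.47 and 8.34 in Landsberg erecta, 7.29-fold apart. ndhA, in the membrane arm, had 10.89, 11.09 and 11.18 in Columbia and 10.84 and 12.13 in Landsberg erecta. For these genes replicate 1 was below every Columbia array and replicate 2 above. ndhG had 5.39, 5.27 and 5.44 in Columbia and 5.40 and 6.43 in Landsberg erecta. ndhE had 8.52, 8.42 and 8.89 in Columbia and 8.52 and 9.64 in Landsberg erecta. ndhI had 13.33, 13.26 and 13.44 in Columbia and 13.37 and 13.94 in Landsberg erecta. In ndhG, ndhE, ndhI and ndhD, replicate 1 lay within the Columbia range and replicate 2 above it. ndhD had 11.29, 11.56 and 11.59 in Columbia and 11.59 and 12.27 in Landsberg erecta.

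The 3 genes of the separate ndhC, ndhK and ndhJ cluster did not share that pattern. ndhK had 6.27, 6.30 and 6.74 in Columbia and 5.83 and 6.30 in Landsberg erecta, and it was the single NDH gene with a higher Columbia mean, by 0.37. ndhC had 11.21, 11.11 and 11.31 in Columbia and 11.42 and 11.29 in Landsberg erecta. ndhJ had 8.27, 8.50 and 8.79 in Columbia and 8.49 and 8.60 in Landsberg erecta, and ndhJ and ndhK both peaked on Columbia replicate 3. ndhF, a membrane subunit, was close to the minimum, at 2.62 on all Columbia arrays and 2.78 and 3.16 in Landsberg erecta, without overlap.

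Genes that neighbour each other, and that are known to be transcribed together, did not always have similar gaps. In the cluster of 7 genes from ndhH to ndhD, which also holds psaC, all gaps had the same sign and ran from 0.57 (ndhI) to 2.87 (ndhH). In the atpI cluster they ran from 1.23 to 2.11, and in the atpB cluster they were 0.10 and 0.06. By contrast, psaA (3.02) and psaB (0.35) are adjacent, and rps14, the ribosomal protein gene that follows them, had -0.58. rps2, a ribosomal protein gene next to atpI by locus tag, was not counted in the atpI cluster and had 0.24. The psbB cluster went from 1.85 for psbB through 0.50 for psbT, 0.99 for psbH and 0.32 for petB to -0.38 for petD. In the psbE cluster psbL (-0.76) stood against psbE (0.25), psbF (0.29) and psbJ (0.22). The reading frames of psbD and psbC overlap, and their gaps were 2.55 and 0.94. Probe sets of neighbours read in different parts of the scale. The Columbia means were 10.42 for psaA, 13.26 for psaB and 4.57 for rps14, and 14.03 for petB and 3.61 for petD. The part of these levels in the unlike gaps was not tested.

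**Figure D2:**
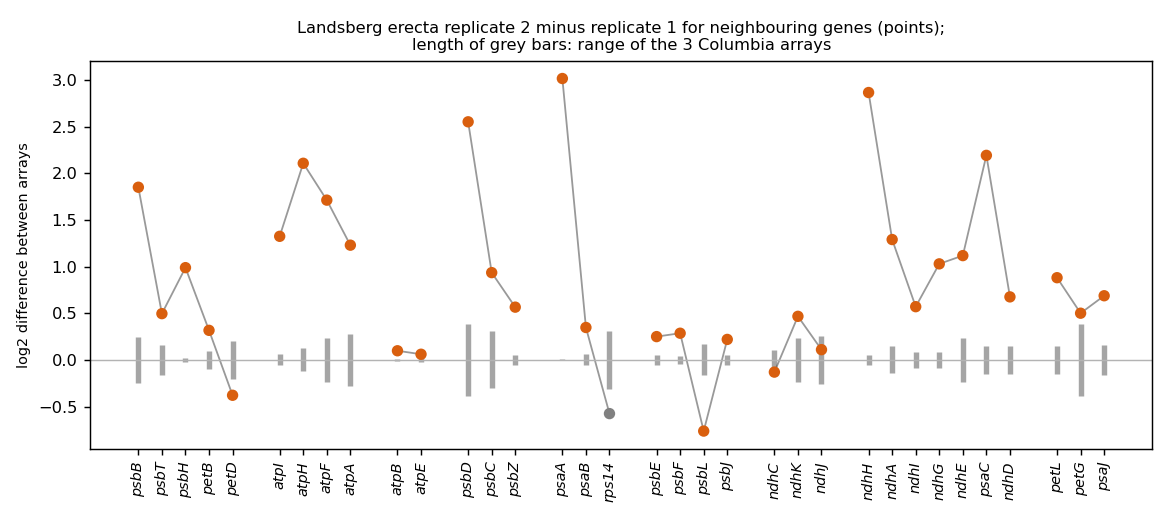
Log2 difference of Landsberg erecta replicate 2 minus replicate 1 (points, vertical axis) for genes joined by a line where they neighbour each other in the plastid genome and are known to be transcribed together, with grey bars whose length is the range of the 3 Columbia arrays. Gaps are alike within the atpB cluster and within the atpI cluster as drawn, from atpI to atpA. They are unlike within the psaA cluster, where psaA stands at 3.02 and rps14 (grey point) at -0.58.

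Between the ecotypes no gene of the 43 passed the test. limma called 0 genes higher in Columbia (0% of all 22746 probe sets) and 0 higher in Landsberg erecta (0%), with an adjusted p of 1.0 for every member. At an unadjusted p under 0.05, limma gave 0 members higher in Columbia (1.17% of all probe sets) and 1 higher in Landsberg erecta (0.62%). Means were higher in Columbia for 12 genes (38.4% of all probe sets) and higher in Landsberg erecta for 31 (33.8%), with a median difference of -0.13, beside 0.00 over all probe sets. By complex the median difference was -0.14 for photosystem I, -0.08 for photosystem II, -0.13 for cytochrome b6f, -0.04 for ATP synthase and -0.39 for NDH, and rbcL had 0.19. The ecotypes did not overlap for 4 genes: atpB was higher in Columbia (5.42% of the probe sets that varied), and psbF, psbJ and ndhF were higher in Landsberg erecta (4.05%).

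The direction of these differences depended on which Landsberg erecta array was kept. Without replicate 1, means were higher in Columbia for 6 genes and higher in Landsberg erecta for 37, with a median difference of -0.37. Without replicate 2, they were higher in Columbia for 27 and in Landsberg erecta for 16, with a median difference of 0.11. psaA, psbH and psbN were called in opposite directions in these fits, higher in Landsberg erecta without replicate 1 and higher in Columbia without replicate 2. Without replicate 1, limma also called ndhF, ndhH, petN and psbM, which made 7 members higher in Landsberg erecta (2.89% of all probe sets) and 0 higher in Columbia (1.57%). Without replicate 2, psaA, psbH, psbN and petA made 4 members higher in Columbia (1.23%), and ndhF was the single one higher in Landsberg erecta (2.88%). The lone Landsberg erecta array was assumed there to vary like the Columbia arrays, and psbN, petN and ndhF had the same value on all 3 Columbia arrays. psaA, psbH and psbM had the same value on Columbia replicates 1 and 2, with Columbia ranges of 0.01, 0.04 and 0.01.

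**Figure D3:**
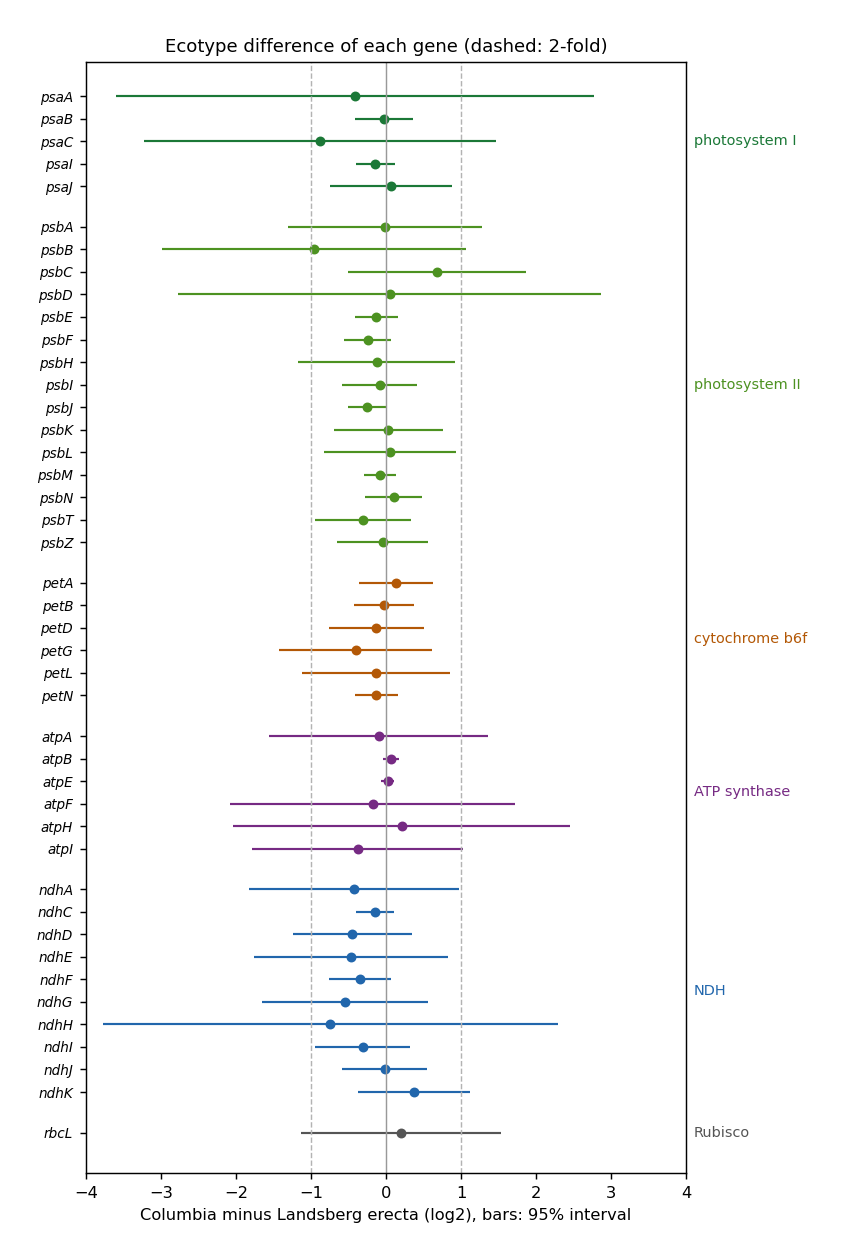
Difference of the ecotype means, Columbia minus Landsberg erecta (points, log2), with its 95% interval from limma (bars), for each of the 43 genes grouped by complex. Every interval but that of psbJ holds 0, and for 23 genes the interval stays inside the dashed lines that mark a 2-fold difference.

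The 95% interval of the difference stayed within 2-fold for 23 of the 43 genes (53.5%), against 85.8% of the probe sets that varied (84.2% at the members' levels). For the other 20 the interval reached past 2-fold in at least 1 direction. It did so in both directions for psaA (-3.60 to 2.77), ndhH (-3.77 to 2.29), psbD (-2.77 to 2.86) and psbB (-2.99 to 1.06), and in a single direction for psbC (-0.51 to 1.86), ndhK (-0.38 to 1.12) and ndhG (-1.65 to 0.56), among others. A value shared by 2 or more arrays, equal to 9 decimals, was found for 15 of the 43 genes, against 54.9% of the probe sets that varied (48.3% at the members' levels).

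Most measured nuclear genes of photosynthesis ran the other way between the Landsberg erecta arrays. Of the 15 with a named probe set, 12 were lower on replicate 2 than on replicate 1, as were 6923 of the 16428 probe sets that varied. The median gap of the 15 was -0.19. The 3 higher on replicate 2 were ATPC1 (0.07), ATPC2 (0.09) and RCA (0.03). On replicate 2, 9 had their lowest of the 5 values (19.5% of the probe sets that varied, 22% at the members' levels). Their means were higher in Columbia for 12 and higher in Landsberg erecta for 3, with a median difference of 0.11. Landsberg erecta minus the Columbia mean had a median of -0.02 for replicate 1 and -0.21 for replicate 2. RCA and ATPC1, however, lay further below the Columbia mean on replicate 1 than on replicate 2. PSAE1, a stromal subunit of photosystem I, had 14.17, 14.17 and 14.24 in Columbia and 14.17 and 13.84 in Landsberg erecta, with replicate 2 alone lower. PSB27, a photosystem II assembly factor, had 12.72, 12.63 and 12.69 in Columbia and 12.60 and 12.43 in Landsberg erecta. NDHS, a nuclear NDH subunit, had 9.35, 9.76 and 9.59 in Columbia and 9.52 and 9.27 in Landsberg erecta. With NDHN and NDHL, all 3 measured nuclear NDH genes were lower on replicate 2, by gaps of -0.25 to -0.45, where 9 of 10 plastid NDH genes were higher. No nuclear gene passed (0 called by limma in either direction), and at an unadjusted p under 0.05 there were 2 higher in Columbia (1.17% of all probe sets), RCA (Rubisco activase, 14.55 ± 0.05 in Columbia, SD, n = 3, and 14.38 ± 0.02 in Landsberg erecta, SD, n = 2) and LHCB4.1 (an antenna protein of photosystem II, 13.87 ± 0.02 in Columbia, SD, n = 3, and 13.67 ± 0.12 in Landsberg erecta, SD, n = 2).

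The 1 higher in Landsberg erecta (0.62% of all probe sets) was ATPC2, a gamma subunit of ATP synthase, at 5.88, 5.88 and 5.87 in Columbia and 5.93 and 6.02 in Landsberg erecta (limma adjusted p = 1.0). The nuclear member of the cytochrome b6f group, PETM, had 13.46, 13.47 and 13.71 in Columbia and 13.49 and 13.48 in Landsberg erecta. Of the photosystem I, photosystem II and light-harvesting nuclear genes, all 8 were lower on Landsberg erecta replicate 2 than on replicate 1.

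Factors that act on plastid RNA were mostly without a named probe set. CRP1, a pentatricopeptide protein known from maize for its role in the processing of petD transcripts, had 7.80, 7.88 and 7.96 in Columbia and 7.78 and 7.76 in Landsberg erecta. AT2G18940, a pentatricopeptide protein gene, had 6.91, 6.66 and 6.91 in Columbia and 6.83 and 7.06 in Landsberg erecta. RPOTMP, an RNA polymerase gene, had the same value near the minimum on all arrays, and it was the single one measured of 21 listed genes of plastid transcription.

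The other 26 plastid genes, which encode ribosomal proteins, the plastid RNA polymerase and further proteins, shared the order of the Landsberg erecta arrays. Of these, 23 were higher on replicate 2, by a median of 0.31, and 21 had their highest value there. accD, a subunit of acetyl-CoA carboxylase, had 8.76, 8.65 and 8.65 in Columbia and 7.93 and 9.97 in Landsberg erecta. With these genes, 62 of 69 plastid genes were higher on replicate 2. The order was therefore not shown to be particular to photosynthesis genes. Of the 15 mitochondrial genes named by the annotation, 11 varied, 8 were higher on replicate 2 and 1 was lower, with a median gap of 0.05. None (0) of them reached a 2-fold gap.

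Control transcripts moved with the plastid genes. The dap, thr and phe probe sets read bacterial transcripts with poly(A) tails that are commonly added to plant RNA before labelling, which the labels do not describe here. Of their 9 probe sets, 8 were highest on Landsberg erecta replicate 2, with a median gap of 0.96 over replicate 1, and 5 were lowest on replicate 1. The middle dap probe set had 6.64, 7.32 and 7.32 in Columbia and 6.52 and 8.15 in Landsberg erecta. The bioB, bioC, bioD and cre probe sets, which read controls commonly added at hybridization, had a median gap of 0.00 over 9 probe sets, with gaps from -0.06 to 0.26. The 25S ribosomal RNA probe set was 0.63 lower on replicate 2 than on replicate 1. The part of these control differences in the values of the plastid genes was not tested.

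**Figure D4:**
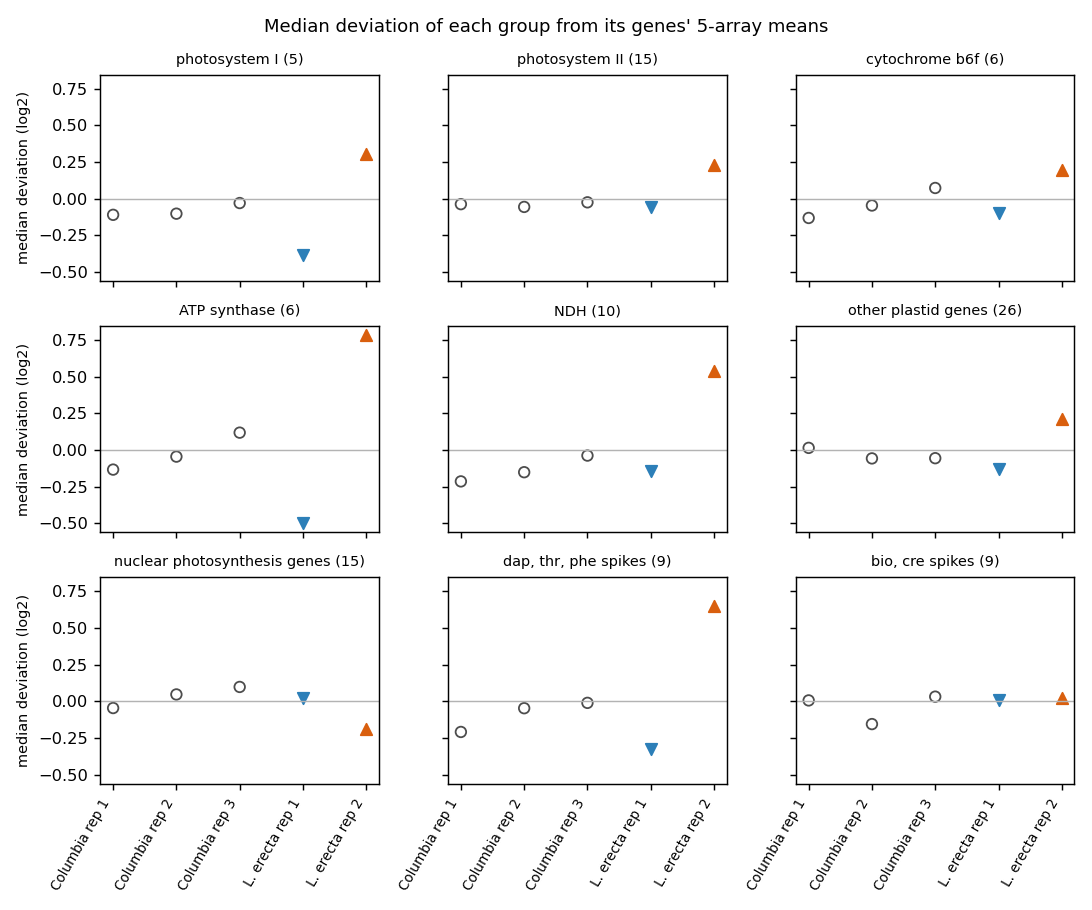
Median deviation of each group of genes or controls from their 5-array means (vertical axis, log2) on each array, with the number of genes or probe sets in brackets, open circles for Columbia and triangles for Landsberg erecta (L. erecta). All 5 plastid complexes and the dap, thr and phe controls have their highest median on Landsberg erecta replicate 2, where the 15 nuclear photosynthesis genes have their lowest, -0.19.

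Among the Columbia arrays the plastid genes varied about as much as other probe sets. The median Columbia range over the 43 genes was 0.20, beside 0.21 over the probe sets that varied. No gene had its highest value on Columbia replicate 1 (0 of 43), 2 had it on replicate 2 and 6 on replicate 3, and the 6 were psbA, psbI, psbK, atpB, ndhJ and ndhK. Markers of other tissues also varied among the Columbia arrays. EMS1, an anther marker, had 4.93, 4.93 and 3.34 in Columbia and 4.93 and 5.74 in Landsberg erecta, and AMS, a tapetum regulator, had 6.51, 6.76 and 4.95 in Columbia and 5.97 and 6.96 in Landsberg erecta. Both were lowest on Columbia replicate 3. GUT2, of secondary wall synthesis, had 5.79, 6.88 and 8.27 in Columbia and 7.68 and 8.01 in Landsberg erecta, and it was lowest on Columbia replicate 1. Both anther markers and GUT2 were higher on Landsberg erecta replicate 2 than on replicate 1, and their part in the plastid values was not tested.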

How the data were processed

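The deposited table held 1 log2 value per probe set and array for 5 Affymetrix arrays. The sources used here do not say how the authors made these log2 values (background correction, normalization, summary of probes). Per the labels' protocols, RNA was extracted with Trizol and 2 ug were labelled. Genes were named by joining the gene identifiers of the platform annotation to RefSeq TAIR10.1, and probe sets with several genes named none.

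Differences were Columbia minus Landsberg erecta, fitted with limma 3.58.1 in R 4.3.3 (lmFit, eBayes, no covariate) over all 22746 probe sets, leaving out 64 controls, with Benjamini-Hochberg adjustment over all of them and a threshold of 0.05. The fit was tested on simulated data. The rule for named genes gave values on all arrays for each complex's members with the highest and lowest difference and the widest range, for 8 core subunits, for members at an unadjusted p under 0.05, and for the member of each other list with the smallest p. Further members, and AMS, NDHN, NDHL, AT2G18940, accD, rps14 and rps2, were named after their values were seen. Members and lists were chosen with earlier results of these data known. Alternatives were other normalizations, a filter on low values, other spread models, array weights, left-out arrays and the replicate number as a block. Figures were drawn with matplotlib 3.10.9.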

Additional observations from a re-analysis of the deposited data

How the results depend on the processing

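No plastid gene of the 43 was called under quantile normalization, equal array medians, the filter, array weights, a trended or robust eBayes, the replicate number as a block, or without probe sets that can bind several genes; averaging probe sets changed nothing, since each gene has 1. At an unadjusted p under 0.05, 1 gene was higher in Landsberg erecta. With single arrays left out, genes called higher in Columbia ranged from 0 to 4 and in Landsberg erecta from 0 to 7, and genes with a higher Columbia mean from 6 to 27. The median difference ranged from -0.366 to 0.113 over all 43 genes, from -0.278 to 0.219 for photosystem I, from -0.257 to -0.00738 for photosystem II, from -0.228 to 0.0668 for cytochrome b6f, from -0.78 to 0.4 for ATP synthase, from -0.69 to 0.00471 for NDH and from -0.425 to 0.814 for rbcL, and the 25S control difference from 0.853 to 1.48. The labels do not say that replicate numbers pair arrays: deviations correlated at -0.03 and 0.08 for replicates 1 and 2, and with the replicate block the median difference was -0.199 and 9 genes had a higher Columbia mean. Values near the minimum of 2.15, as for ndhF, carry little order.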
